A study of Mus musculus with 143 samples.

Results

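The genes studied here encode the voltage-gated sodium and calcium channels and were chosen by name: every protein-coding gene of the deposited count table whose mouse symbol begins with Scn and a digit or with Cacn. The rule took 40 of 41128 genes, or of 21397 protein-coding ones. Of these, 20 encode the pore of a channel (10 Scn and 10 Cacna1 genes) and 20 an auxiliary subunit (4 sodium channel β, 4 α2δ, 4 calcium channel β and 8 γ genes). RNA came from the striatum of 143 mice, 1 library per mouse. Knock-in zQ175 mice, a model of Huntington's disease with an expanded CAG repeat in their own Htt gene, were set against wild-type (WT) mice, and the labels used here do not give the number of knock-in alleles an animal carried. Mice of each genotype received HTT-10150, a small interfering RNA (siRNA) against Htt, or NTC, a non-targeting siRNA, or were left untreated. In the strategy 2[4]6 mice were treated at 2 months of age and taken at 6 months, in 6[4]10 they were treated at 6 and taken at 10 months, and in 2+6[8]10 they were treated at 2 and 6 months and taken at 10 months. Untreated mice of each strategy had the same age as the treated ones. Each of the 18 groups held 8 mice, 4 of each sex, apart from 1: the WT group given HTT-10150 in 2+6[8]10 held 2 females and 5 males.

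The pore of a voltage-gated channel is a single large protein that opens on depolarization: sodium channels carry the upstroke of the action potential, and calcium channels link depolarization to transmitter release, dendritic signals and transcription. Auxiliary subunits set how much pore protein reaches the membrane and how it gates. The β subunits of sodium channels are small membrane proteins, those of calcium channels are cytoplasmic, and α2δ proteins sit outside the cell. Most γ genes expressed in brain are better known as TARPs, which accompany AMPA-type glutamate receptors rather than calcium channels, and Scn7a, counted here with the pores, encodes a channel that responds to sodium concentration rather than to voltage. The striatum is formed mostly by medium spiny neurons, and the β4 subunit encoded by Scn4b, abundant in them, is known for promoting resurgent sodium current.

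Library totals, in units of 1e+06 counts, ran from 12.55 to 29.19 with a median of 18.85. The defining markers of medium spiny neurons were present: over the untreated libraries Ppp1r1b ran from 1429 to 3270 TPM (transcripts per 1e+06, a level per length of transcript), Penk from 748 to 2283, Drd2 from 135.5 to 306 and Drd1 from 89.3 to 199 TPM. Htt counts, which do not separate the 2 alleles, checked the siRNA: in 2+6[8]10 zQ175 mice the median was 109 CPM (counts per 1e+06, scaled by TMM) after HTT-10150 against 138 CPM after NTC, a log2 fold change of -0.36 ± 0.06 (SE, edgeR adjusted p = 0.00035), and in WT the change was -0.49 ± 0.06 (edgeR adjusted p = 5e-06). In 2[4]6 and 6[4]10 Htt did not pass the test in zQ175 (-0.01 ± 0.05 and -0.32 ± 0.08, edgeR adjusted p = 0.99 and 0.60), nor in WT (-0.26 ± 0.05 and -0.34 ± 0.08, edgeR adjusted p = 0.057 and 0.82). Some libraries stood apart: 4 by medium spiny neuron markers or by the slope of gene levels on transcript length, 9 by choroid plexus markers, and 1 untreated WT library of 6[4]10 by low Scn4b.

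Promoters of 4 members are printed because these members are among those with the largest differences between genotypes and include a neighbouring pair that moved together. Scn2b and Scn4b lie on the same strand of chromosome 9 with a gap of 8.32 kb. RefSeq (GRCm38.p6) gave a window of 250 bases before to 50 after the start for 30 of the 40 members. Capitals mark CG pairs, and each run reads 5′ to 3′ on the strand of the gene.
Scn4b: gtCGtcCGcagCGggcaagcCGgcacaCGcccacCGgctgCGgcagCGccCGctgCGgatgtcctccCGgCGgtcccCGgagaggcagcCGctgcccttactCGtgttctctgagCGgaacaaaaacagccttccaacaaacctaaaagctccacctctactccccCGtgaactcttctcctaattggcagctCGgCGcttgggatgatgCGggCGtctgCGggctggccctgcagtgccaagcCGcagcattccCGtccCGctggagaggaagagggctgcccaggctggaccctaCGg
Scn2b: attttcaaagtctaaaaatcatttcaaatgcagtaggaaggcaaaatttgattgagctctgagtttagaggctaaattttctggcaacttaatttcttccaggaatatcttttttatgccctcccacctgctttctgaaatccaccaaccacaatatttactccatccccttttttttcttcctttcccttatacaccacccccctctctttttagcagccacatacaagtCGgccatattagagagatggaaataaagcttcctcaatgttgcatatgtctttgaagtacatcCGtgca
Cacna2d3: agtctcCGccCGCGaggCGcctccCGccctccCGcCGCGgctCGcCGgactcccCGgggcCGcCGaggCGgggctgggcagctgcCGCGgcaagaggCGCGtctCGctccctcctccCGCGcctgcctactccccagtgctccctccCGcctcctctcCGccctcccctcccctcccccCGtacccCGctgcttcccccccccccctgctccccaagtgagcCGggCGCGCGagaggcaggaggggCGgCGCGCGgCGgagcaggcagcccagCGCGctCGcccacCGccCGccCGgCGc
Scn9a: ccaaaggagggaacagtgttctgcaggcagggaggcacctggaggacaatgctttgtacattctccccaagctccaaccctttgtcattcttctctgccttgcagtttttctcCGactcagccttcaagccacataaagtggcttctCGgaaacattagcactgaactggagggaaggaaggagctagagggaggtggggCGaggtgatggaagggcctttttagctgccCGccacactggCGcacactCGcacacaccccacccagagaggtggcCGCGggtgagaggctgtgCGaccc

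The Scn4b window (chr9:45138374-45138673, plus strand) held 26 CG pairs and the Scn2b window (chr9:45117626-45117925, plus strand) held 2, against a median of 7 over 32851 promoters. The Cacna2d3 window (chr14:29721815-29722114, minus strand) held 41 and the Scn9a window (chr2:66634913-66635212, minus strand) held 9. The neighbouring pair differed in CG content. Searched on both strands, TATAAA, TGACGTCA and CACGTG were in none of these 4 windows, and GGGCGG was in the Cacna2d3 window alone, 6 times. Of all windows, TATAAA was in 13.6%, TGACGTCA in 1.79%, CACGTG in 7.15% and GGGCGG in 35.7%. A match is a description of letters only.

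In untreated WT mice of 2[4]6, auxiliary subunits were the more abundant transcripts per length. The median over the 20 auxiliary genes was 75.4 TPM, and over the 20 pore genes 14.5 TPM. Scn4b led at 759 ± 67.5 TPM, Scn2b stood at 187 ± 8.87 and Cacna2d3 at 155 ± 9.78 TPM (mean ± SD, n = 8). The libraries' values of these 3 genes did not overlap one another, whereas from Cacna2d3 down to Scn1a each gene overlapped the next. Among the pores Scn2a, which encodes Nav1.2, was highest at 92.3 ± 5.53 TPM, then the T-type calcium channel gene Cacna1h at 57.5 ± 11.4 and the sodium channel gene Scn8a at 54.2 ± 3.30 TPM. At the other end, 4 sodium pore genes averaged under 1 TPM: Scn7a, Scn11a, Scn10a and Scn4a. The retinal channel gene Cacna1f, the muscle pore gene Cacna1s and the γ gene Cacng6 were also under 1 TPM. Scn4a, Scn10a, Scn11a, Cacna1f and Cacng6 had too few counts to be tested, which left 35 members, 16 pore and 19 auxiliary.

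**Figure D1:**
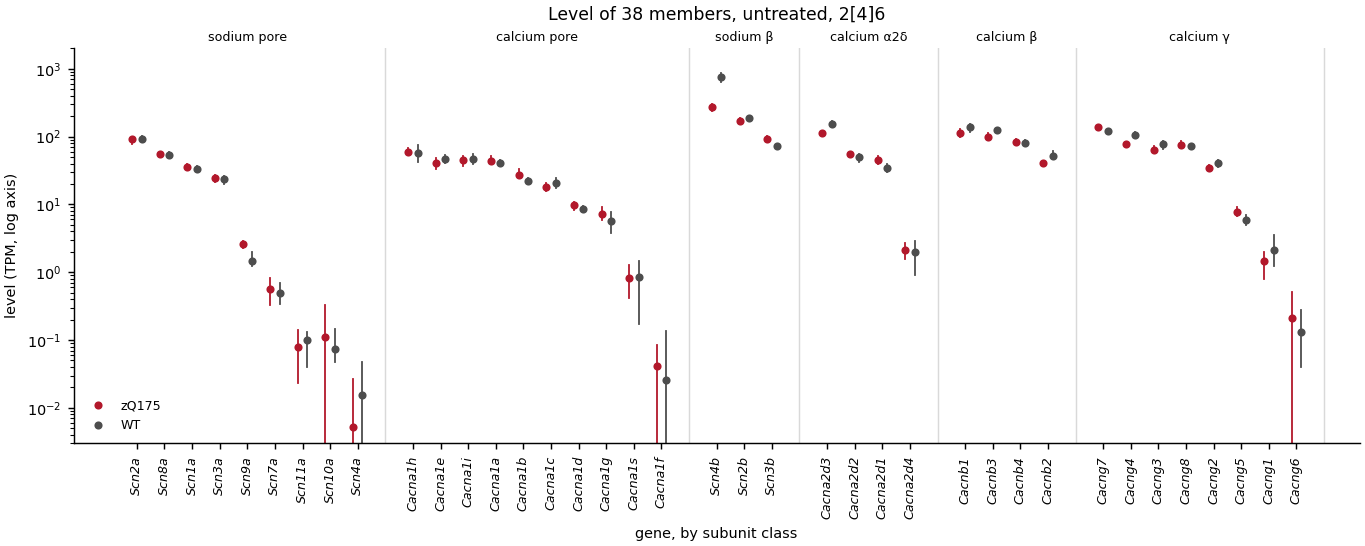
Level of 38 of the 40 members in untreated mice of 2[4]6, in TPM on a log axis, grouped by subunit class. Points are means of 8 mice and lines run from the lowest to the highest, zQ175 in red left of WT in grey, with values at 0 cut at the axis. Scn4b stands at the top of the WT points and is the member whose 2 points lie furthest apart among the abundant genes.

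The comparison of zQ175 with WT asked which channel genes differ in the striatum of the knock-in. More auxiliary genes were lower than higher in zQ175. Most pore genes tested passed in neither direction, as did most of all genes tested. In untreated mice 13 members were lower and 8 higher in 2[4]6, 11 lower and 5 higher in 6[4]10, and 13 lower and 6 higher in 2+6[8]10, where a member counts as lower or higher when its edgeR p, adjusted over all genes tested in the strategy, was under 0.05. Over all genes tested, 17.2%, 17% and 18.3% were lower and 15.3%, 19.2% and 17.1% were higher. Of the 19 auxiliary genes tested 11, 9 and 11 were lower and 4, 4 and 3 higher, with median log2 fold changes of -0.24, -0.14 and -0.17. Of the 16 pore genes 2, 2 and 2 were lower and 4, 1 and 3 higher, with medians of 0.02, -0.07 and -0.02. The median over all genes tested was 0.0035, 0.011 and 0.0031. No test of the difference between the classes was made, and pore transcripts are longer (median exon length 10040 bases, against 4593 for auxiliary genes). With each library's slopes on transcript length and GC content as covariates, 13, 10 and 14 members were lower and 7, 7 and 7 higher. Of the libraries that stood apart, 1 untreated zQ175 library of 6[4]10 did so by length slope, and without the 3 libraries of 6[4]10 apart by medium spiny neuron markers or length slope 10 members were lower and 6 higher there. By choroid plexus markers 1 untreated library of 2[4]6 and 2 of 2+6[8]10 stood apart, and without such libraries 13 and 12 members were lower and 8 and 6 higher in these strategies, and without the WT library low in Scn4b the counts were 10 lower and 4 higher in 6[4]10. Without replicate 3 of each sex, 3 members were higher in 6[4]10. For these alternative settings, here and below, the share of all genes that passed is not given. Whether the members differed from all genes there cannot be read from these counts.

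The 9 genotype comparisons, 3 treatments in each of 3 strategies, shared no animals. After NTC, 12 members were lower in each strategy and 6, 7 and 8 were higher in 2[4]6, 6[4]10 and 2+6[8]10, where 18.5%, 15.9% and 21.4% of all genes were lower and 15.9%, 16.8% and 20.7% higher. After HTT-10150, 13, 12 and 15 members were lower and 6, 7 and 9 higher, with 17.4%, 16.9% and 18.7% of all genes lower and 16.1%, 17.8% and 17.5% higher. The count of 9 higher members in 2+6[8]10 was 5 without replicate 2 of each sex. Without the libraries apart by medium spiny neuron markers or length slope, 12 members were lower and 8 higher after NTC in 6[4]10, and after HTT-10150 12 were lower and 6 higher in 2[4]6 and 12 lower and 7 higher in 6[4]10. Without those apart by choroid plexus markers, 14, 10 and 12 were lower and 6, 7 and 8 higher after NTC, and 12, 12 and 14 were lower and 6, 7 and 9 higher after HTT-10150. There were 15 members that passed the test in 1 direction in all 9 comparisons. The 11 lower ones were Scn4b, Scn2b, Cacna2d3, Cacnb1, Cacnb2, Cacnb3, Cacng2, Cacng3, Cacng4, Cacna1c and Cacna1e, and the 4 higher ones were Scn9a, Scn3b, Cacna2d1 and Cacng7. They comprise 12 auxiliary and 3 pore genes. Of all 15431 genes tested in the 3 strategies, 7.53% were lower in all 9 and 5.06% higher in all 9. No member passed in both directions. A further 6 pore genes (Scn1a, Scn2a, Scn7a, Scn8a, Cacna1h and Cacna1s) and 2 auxiliary ones (Cacna2d2 and Cacna2d4) passed in none of the 9, as did 26.5% of all genes. Counts of Scn7a, Cacna1s and Cacna2d4 were low, so for them a failed test does not show a stable level. Their log2 fold changes over the 9 ran from -0.15 to 0.33, from -0.33 to 0.34 and from -0.31 to 0.12.

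**Figure D2:**
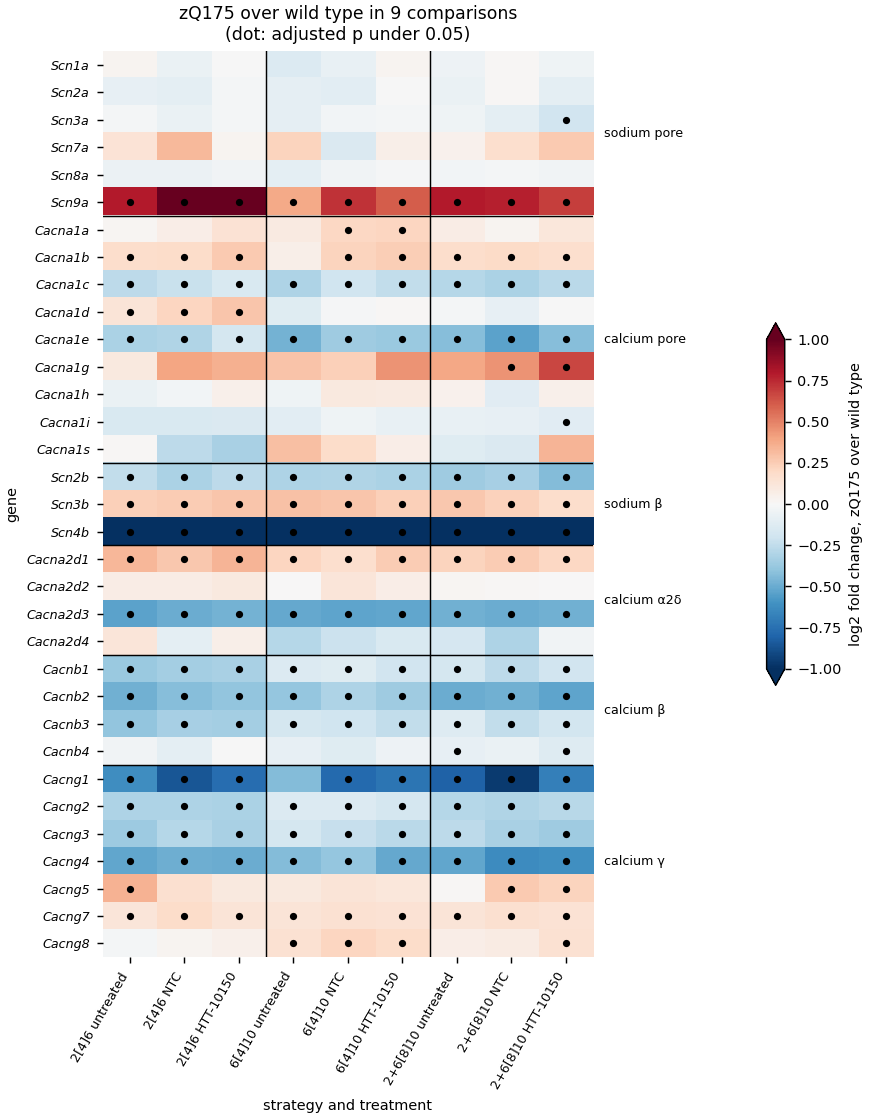
Log2 fold change of zQ175 over WT for 33 of the 35 members tested (rows, by subunit class) in the 9 genotype comparisons (columns, by strategy and treatment), with blue lower and red higher in zQ175. Black dots mark an edgeR adjusted p under 0.05, colours end at -1 and 1, and 15 rows carry a dot in every column.

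Among sodium channel β genes, Scn4b showed the largest difference of all members tested. In 2[4]6 it ran from 529 to 671 CPM with a median of 593 in untreated zQ175 mice, against 1553 to 1976 CPM with a median of 1738 in WT. In 6[4]10 the zQ175 mice held 457 to 563 CPM (median 487), against 1117 to 1719 CPM (median 1637) in WT. In 2+6[8]10 the range was 469.5 to 576 CPM (median 539.5) in zQ175 and 1498 to 1814 CPM (median 1653) in WT. Every zQ175 library lay below every WT library of its strategy and treatment, also after NTC and after HTT-10150. The log2 fold change was -1.56 ± 0.08, -1.67 ± 0.12 and -1.67 ± 0.06 (SE, edgeR adjusted p = 6.3e-21, 2.3e-14 and 1.4e-25), so that Scn4b fell by 66.2%, 68.5% and 68.5%. Without the untreated WT library that was lowest in Scn4b, the change in 6[4]10 was -1.73. That library was chosen for its low Scn4b, so a larger fall without it follows from the choice.

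Scn2b, its neighbour on chromosome 9, encodes the β2 subunit, which is bound to the pore by a disulfide bridge as β4 is. Its level was 314 to 371 CPM (median 334) in zQ175 and 378 to 413 CPM (median 406) in WT of 2[4]6. The zQ175 libraries lay below the WT libraries without overlap in all 3 untreated comparisons, and also after NTC and after HTT-10150. The fold change in untreated mice was much smaller than that of Scn4b: -0.24 ± 0.03, -0.31 ± 0.03 and -0.36 ± 0.04 on the log2 scale (SE, edgeR adjusted p = 9e-08, 7e-10 and 8e-12). Scn3b, which encodes a non-covalently bound β subunit, rose. It stood at 146 to 167.9 CPM (median 159.8) in zQ175 against 125 to 139 CPM (median 136) in WT of 2[4]6, with no overlap there and in 6[4]10 and some overlap in 2+6[8]10. Its log2 fold changes were 0.24 ± 0.04, 0.30 ± 0.05 and 0.27 ± 0.04 (SE, edgeR adjusted p = 7e-06, 8.2e-07 and 2.5e-06).

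The makeup and sum of the β class also differed, but both include Scn4b and so are not a separate result from its fall. In untreated 2[4]6 mice Scn4b made up 32.9 ± 1.67% of the summed TPM of the 4 β genes in zQ175, against 56.8 ± 2.63% in WT (SD, n = 8 each). The class summed to 826 ± 29.7 TPM in zQ175 and 1334 ± 65.6 TPM in WT, and the ranges did not overlap (782 to 859 against 1215 to 1398 TPM). Sodium pore genes summed to 211 ± 13.3 TPM in zQ175 and 206 ± 11.7 TPM in WT, with ranges that overlapped. The same held in 6[4]10 and 2+6[8]10, where β genes summed to 809.9 ± 30.2 and 821 ± 35.1 TPM in zQ175, against 1268 ± 100.5 and 1299 ± 59.97 TPM in WT. The median log2 ratio of zQ175 to WT TPM over all genes above 1 TPM was 0.09, 0.05 and 0.09 in the 3 strategies, so these TPM sums sit on a scale shifted slightly upward in zQ175.

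Among sodium pore genes only Scn9a, which encodes Nav1.7 and is best known from peripheral sensory neurons, passed in all 9 comparisons, and it rose. Its level was low: 9.51 to 11.8 CPM (median 10.8) in untreated zQ175 mice and 4.75 to 8.48 CPM (median 6.16) in WT of 2[4]6. In 6[4]10 it was 5.68 to 13.9 CPM (median 9.79) in zQ175 and 6.06 to 9.11 CPM (median 6.96) in WT. In 2+6[8]10 it was 8.26 to 20.1 CPM (median 11.8) in zQ175 and 6.37 to 8.23 CPM (median 7.08) in WT. The groups lay apart in 2[4]6 and 2+6[8]10 and overlapped in 6[4]10, where some zQ175 libraries were as low as the WT ones. The log2 fold changes were 0.79 ± 0.12, 0.38 ± 0.14 and 0.79 ± 0.12 (SE, edgeR adjusted p = 3.2e-07, 0.032 and 3.8e-07). The call in 6[4]10 was lost in 5 of 15 alternatives: without replicate 4 of each sex the change was 0.16 (edgeR adjusted p = 0.46), and without the WT library lowest in Scn4b it was 0.36 (edgeR adjusted p = 0.06). Its neighbours on chromosome 2, Scn1a at a gap of 39.2 kb and Scn7a at 38.5 kb, passed in none of the 9 comparisons. Counts of Scn7a were lower still than those of Scn9a, which limits its test.

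The abundant sodium pores of central neurons did not pass in any of the 9 comparisons. The log2 fold changes of untreated zQ175 over WT in 2[4]6, 6[4]10 and 2+6[8]10 were -0.08 ± 0.05, -0.09 ± 0.06 and -0.07 ± 0.04 for Scn2a (SE). They were -0.06 ± 0.04, -0.10 ± 0.05 and -0.03 ± 0.04 for Scn8a, which encodes Nav1.6 of the axon initial segment. For Scn1a, a pore known from fast-spiking interneurons, they were 0.03 ± 0.04, -0.14 ± 0.07 and -0.05 ± 0.05. Scn3a, an embryonic pore gene, fell in 1 of the 9 comparisons.

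Of the calcium channel pores, 2 fell in all 9 comparisons. Cacna1e, which encodes the R-type channel, fell. Its level in 2+6[8]10 was 232 to 333 CPM (median 283) in untreated zQ175 mice and 342 to 409 CPM (median 371) in WT, with no overlap. The groups were also apart in untreated 6[4]10 and overlapped in 2[4]6. The log2 fold changes were -0.32 ± 0.06, -0.47 ± 0.08 and -0.43 ± 0.05 (SE, edgeR adjusted p = 7e-05, 1.1e-05 and 1.7e-08). Cacna1c, which encodes the L-type channel Cav1.2, fell as well, with 82.6 to 106 CPM (median 96.6) in zQ175 and 107.4 to 123.5 CPM (median 114) in WT of 2+6[8]10, again apart. Its groups were also apart in untreated 2[4]6 and overlapped in 6[4]10. On the log2 scale the changes of Cacna1c were -0.26 ± 0.04, -0.31 ± 0.06 and -0.28 ± 0.05 (SE, edgeR adjusted p = 3.9e-06, 6.4e-05 and 7.1e-06).

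The other L-type gene of neurons, Cacna1d (Cav1.3), rose in the 3 comparisons of 2[4]6, by 0.13 ± 0.05 in untreated mice (edgeR adjusted p = 0.033), and in none of the others (-0.12 ± 0.07 and -0.02 ± 0.05 in untreated mice). The untreated difference between 6[4]10 and 2[4]6 was itself -0.25 ± 0.08 and did not pass in edgeR (adjusted p = 0.086). Cacna1b, which encodes the N-type channel of nerve terminals, rose in 8 of the 9 comparisons, with 0.17 ± 0.04 and 0.18 ± 0.05 in untreated 2[4]6 and 2+6[8]10 (edgeR adjusted p = 0.0011 and 0.0026) and 0.06 ± 0.06, which did not pass, in untreated 6[4]10. The P/Q-type gene Cacna1a rose in 2 of the 9. Of the T-type genes, Cacna1g rose in 2 of the 9, Cacna1i fell in 1 and Cacna1h passed in none.

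The α2δ class held changes in opposite directions. Cacna2d3, the most abundant α2δ gene in WT striatum, stood at 179.9 to 196 CPM (median 183) in untreated zQ175 mice and 247 to 297 CPM (median 266) in WT of 2[4]6. Every zQ175 library lay below every WT library in all 9 comparisons. Its log2 fold change was -0.53 ± 0.05, -0.51 ± 0.05 and -0.48 ± 0.04 (SE, edgeR adjusted p = 3.4e-12, 8.7e-11 and 2e-14). Cacna2d1, whose product binds gabapentin, rose. It ran 129.6 to 167 CPM (median 152) in zQ175 and 105 to 135.3 CPM (median 118) in WT of 2[4]6, so most but not all zQ175 libraries were above the WT ones. Its log2 fold changes were 0.33 ± 0.06, 0.22 ± 0.06 and 0.22 ± 0.04 (SE, edgeR adjusted p = 4.8e-05, 0.0057 and 7.3e-06), and in 6[4]10 the call was lost without replicate 1 (adjusted p = 0.076). As a share of the summed TPM of the 4 α2δ genes in 2[4]6, Cacna2d3 was 52.6 ± 1.5% in zQ175 and 64.4 ± 1.38% in WT, and Cacna2d1 was 20.998 ± 1.56% and 14.2 ± 1.36%.

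Calcium channel β subunits, which carry the pore to the membrane, fell in 3 of 4 cases in all 9 comparisons. Cacnb2 ran 56.9 to 65.8 CPM (median 62.2) in untreated zQ175 mice and 79.1 to 98.3 CPM (median 83.8) in WT of 2[4]6, and its groups were apart in each untreated comparison. The changes on the log2 scale were -0.48 ± 0.06, -0.39 ± 0.05 and -0.50 ± 0.05 (SE, edgeR adjusted p = 2.4e-09, 8e-08 and 9.2e-13). Cacnb3 ran 110.1 to 135.4 CPM (median 122) in zQ175 and 141 to 167.7 CPM (median 158.6) in WT of 2[4]6, apart there and overlapping in 6[4]10 and 2+6[8]10. Its log2 fold changes were -0.39 ± 0.06, -0.17 ± 0.05 and -0.13 ± 0.05 (SE, edgeR adjusted p = 4e-07, 0.0037 and 0.042), and the last did not hold in DESeq2 (adjusted p = 0.052). It was also lost without replicate 1, 2 or 3 (adjusted p = 0.065, 0.24 and 0.12). Over the 3 strategies the call of Cacnb3 was lost in 8 alternatives, not all of them named here. Cacnb1, the β subunit of skeletal muscle and brain, ran 146 to 169.1 CPM (median 151.1) in zQ175 and 175.67 to 220.1 CPM (median 199) in WT of 2[4]6. Those groups were apart, and the groups of 6[4]10 and 2+6[8]10 overlapped. The log2 fold changes of Cacnb1 were -0.37 ± 0.05, -0.14 ± 0.05 and -0.17 ± 0.04 (SE, edgeR adjusted p = 1.5e-07, 0.018 and 0.00021). In 6[4]10 the adjusted p of Cacnb1 was 0.07 without replicate 2 and 0.079 without replicate 3, and that of Cacnb3 was 0.081 without replicate 3. Cacnb4, the gene mutated in the lethargic mouse, fell in 2 of the 9 comparisons, among them untreated 2+6[8]10 (-0.08 ± 0.03, edgeR adjusted p = 0.037).

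The γ genes included the TARPs Cacng2, Cacng3 and Cacng4, which fell, and Cacng7, which rose. Cacng4 ran 113.4 to 129 CPM (median 119.8) in untreated zQ175 mice and 160.2 to 188 CPM (median 173) in WT of 2[4]6, apart there and in the other 8 comparisons. On the log2 scale it changed by -0.52 ± 0.05, -0.43 ± 0.08 and -0.52 ± 0.04 (SE, edgeR adjusted p = 1.5e-11, 1.3e-05 and 1.2e-15). Cacng3 ran 64.3 to 80.3 CPM (median 76.5) in zQ175 and 80.5 to 91.4 CPM (median 88.3) in WT of 2+6[8]10, where the highest zQ175 library stood just under the lowest WT one. The groups overlapped in untreated 2[4]6 and 6[4]10. In 2[4]6, 6[4]10 and 2+6[8]10 the log2 fold changes were -0.36 ± 0.05, -0.18 ± 0.07 and -0.26 ± 0.04 (SE, edgeR adjusted p = 2.2e-07, 0.049 and 8.2e-07). The value in 6[4]10 was at the threshold and was lost in 10 of 15 alternatives, among them without replicate 1, 2 or 4 (adjusted p = 0.086, 0.2 and 0.19) and without the 3 libraries of 6[4]10 apart by medium spiny neuron markers or length slope (adjusted p = 0.051). Cacng2 (stargazin) ran 76.02 to 91.5 CPM (median 82.9) in zQ175 and 86.8 to 112 CPM (median 101.6) in WT of 2+6[8]10, with overlap in each of the 3 untreated comparisons. Its log2 fold changes were -0.31 ± 0.05, -0.14 ± 0.05 and -0.28 ± 0.04 (SE, edgeR adjusted p = 2.9e-07, 0.037 and 2.8e-07). In 6[4]10 the call was lost in 5 alternatives, among them without replicate 1, 3 or 4 (adjusted p = 0.26, 0.072 and 0.089).

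Cacng7, which encodes a type II TARP, rose slightly in all 9 comparisons (0.12 ± 0.04, 0.13 ± 0.04 and 0.13 ± 0.04 in untreated mice), and its groups overlapped in each strategy. The edgeR adjusted p was 0.01, 0.018 and 0.014, and without replicate 2 of each sex it was 0.093, 0.071 and 0.093. Over the 3 strategies the call of Cacng7 was lost in 5 alternatives, these included. Cacng8, the TARP that lies next to it on chromosome 7 at a gap of 22.5 kb, rose in the 3 comparisons of 6[4]10 and in 1 of 2+6[8]10. Cacng1, a subunit of the skeletal muscle channel, was near 1 CPM and fell in 8 of the 9 comparisons, with -0.62 ± 0.20, -0.43 ± 0.21 and -0.81 ± 0.23 in untreated mice, the middle value not passing (edgeR adjusted p = 0.11). Cacng1, Cacng4 and Cacng5 follow each other on chromosome 11 with gaps of 15.8 and 80.0 kb, and Cacng5 rose in 3 of the 9. Of 5 skeletal muscle markers outside the family 2 had enough counts to be tested, and 1, 0 and 1 were lower. The 5 summed to 16.7 to 61.1 CPM in zQ175 and 29.6 to 70.6 CPM in WT of 2+6[8]10. The 2 tested include Pvalb, which is also on the list of interneuron markers used below. These counts and sums are therefore not a measure of muscle RNA alone. The part of muscle RNA in the Cacng1 result was not tested.

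**Figure D3:**
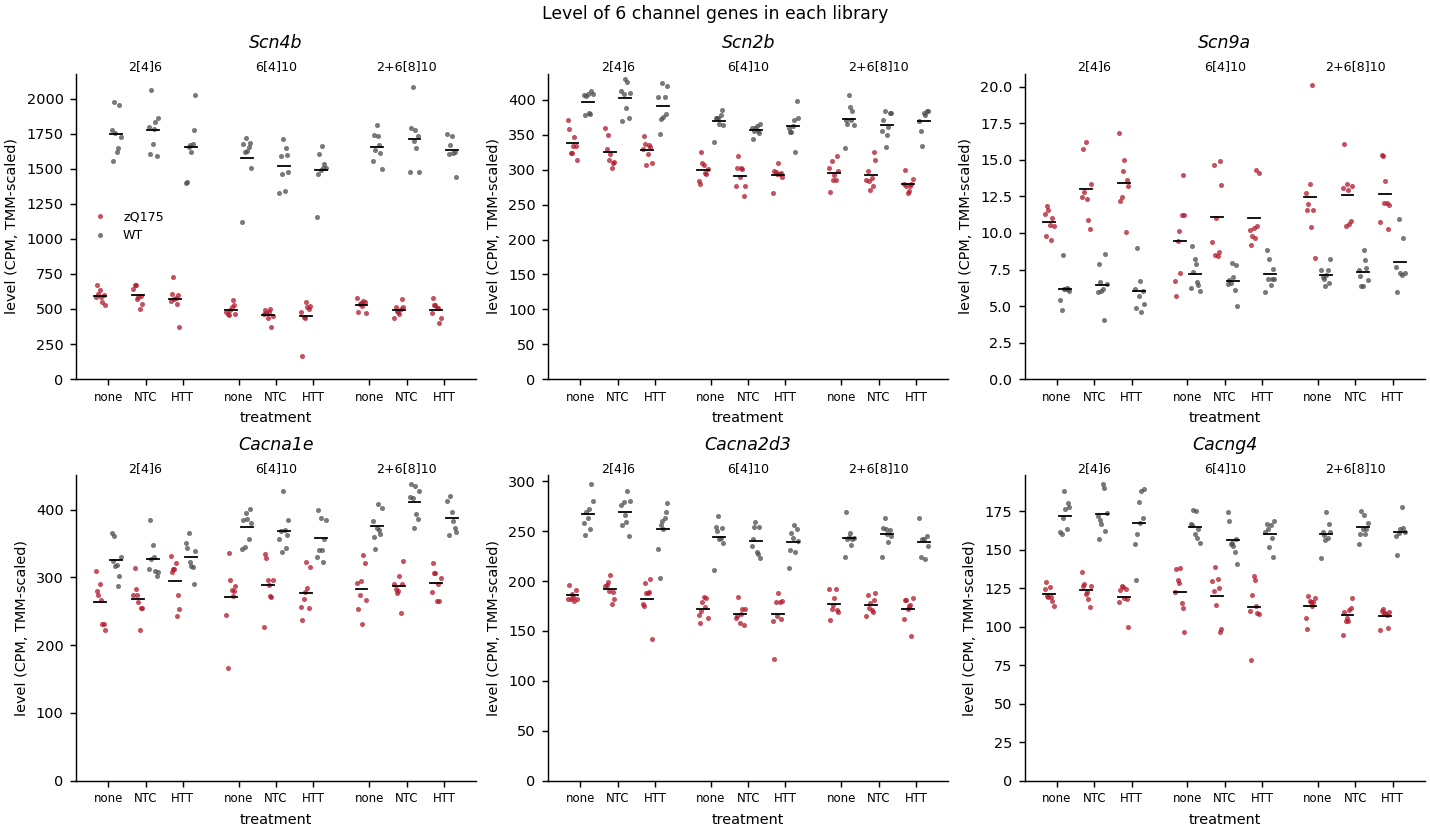
Level of 6 members in each of the 143 libraries, in TMM-scaled CPM, by treatment within each strategy, zQ175 in red left of WT in grey, with bars at the group means ("none" is untreated and HTT is HTT-10150). The 2 genotypes lie apart in Scn4b, Scn2b, Cacna2d3 and Cacng4 in all 9 pairs, and lie close or overlap in places in Scn9a and Cacna1e.

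Markers of some cell types differed with the genotype, and the medium spiny neuron list had the largest share of lower markers. Among untreated mice 17.2%, 17% and 18.3% of all genes tested were lower and 15.3%, 19.2% and 17.1% higher in the 3 strategies. Lists such as oligodendrocyte precursors and choroid plexus were near or below these shares. In untreated mice 9 of 10 medium spiny neuron markers were lower and 0 higher in each strategy, with a summed level of 5252 to 5901 CPM in zQ175 and 8815 to 10788 CPM in WT of 2[4]6, 4646 to 5753 and 7386 to 9813 CPM in 6[4]10, and 4548 to 5348 and 8054 to 9408 CPM in 2+6[8]10. Of 10 interneuron markers 6, 6 and 5 were lower and 0 higher, with sums of 407 to 459 CPM in zQ175 and 443 to 499 CPM in WT of 2[4]6. Of 10 markers of cortical projection and thalamic neurons 1, 2 and 3 were lower and 1 higher in each, with sums of 894 to 1154 CPM in zQ175 and 1255 to 1698 CPM in WT of 2[4]6. The cortical and thalamic sums overlapped between zQ175 and WT in 6[4]10 (809 to 1440 and 1020 to 1382 CPM) and in 2+6[8]10 (804 to 1089 and 992 to 1347 CPM). Sums of the neuronal lists were lower in zQ175 at the median. Of 6 astrocyte markers 3, 5 and 4 were lower and 0 higher, with sums of 3035 to 3345 CPM in zQ175 and 3635 to 3954 CPM in WT of 2[4]6. Of 6 oligodendrocyte markers 2, 2 and 3 were lower and 0 higher, with sums of 7998 to 11077 CPM in zQ175 and 9115 to 11203 CPM in WT. Of 6 markers of endothelium and mural cells 4 were lower in each strategy (213 to 247 CPM in zQ175 and 233 to 292 CPM in WT of 2[4]6), and of 5 microglia markers 3, 2 and 1 (255 to 285 and 279 to 315 CPM). Oligodendrocyte precursor markers had 1 of 6 lower in each strategy and 1 higher in 6[4]10 (281 to 384 CPM in zQ175 and 284 to 348 CPM in WT). Choroid plexus markers had 0 of 5 lower or higher, with sums of 47.6 to 2911 CPM in zQ175 and 43.8 to 1501 CPM in WT of 2+6[8]10. None of these lists had a marker at 0 in all untreated libraries. The part of cell composition in the channel results was not tested, and in bulk tissue fewer cells of a type and less RNA per cell cannot be told apart.

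The genes that bind or position these channels were followed through a list of 34 partner symbols, of which 31 were tested. The list gives Nalf1 and Nalf2 also under their older symbols Fam155a and Fam155b, so it names fewer than 34 genes. In untreated mice 6, 8 and 8 were lower and 3, 3 and 6 higher in 2[4]6, 6[4]10 and 2+6[8]10, with median log2 fold changes of -0.04, -0.02 and -0.02. Over all genes 17.2%, 17% and 18.3% were lower and 15.3%, 19.2% and 17.1% higher. In all 3 strategies 5 partners were lower and 2 higher, against 10.1% and 8.15% of all genes. Lower in all 3 were Rem2, a GTPase that restrains calcium channels (-0.54 ± 0.08, -0.40 ± 0.08 and -0.47 ± 0.06, SE), and Fgf14, an intracellular FGF that binds the sodium channel tail (-0.32 ± 0.05, -0.33 ± 0.06 and -0.35 ± 0.04). Also lower in all 3 were Nedd4l, a ubiquitin ligase for sodium channels (-0.33 ± 0.05, -0.30 ± 0.04 and -0.34 ± 0.04), the anchoring protein gene Akap5 (-0.14 ± 0.06, -0.25 ± 0.08 and -0.24 ± 0.06) and Ank3, the ankyrin of the axon initial segment (-0.14 ± 0.04, -0.15 ± 0.06 and -0.11 ± 0.04). Higher in all 3 were Rimbp2, which tethers calcium channels at release sites (0.20 ± 0.06, 0.35 ± 0.07 and 0.32 ± 0.06), and Gpd1l, which is known to affect sodium current (0.18 ± 0.03, 0.27 ± 0.04 and 0.26 ± 0.03).

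The comparison of HTT-10150 with NTC asked whether the siRNA against Htt moves these genes. A single member passed in 1 of the 6 comparisons: Scn2a in 2+6[8]10 zQ175 mice, where 3.16% of all genes passed in either direction and 2.06% were lower. Scn2a stood at 265 to 299.7 CPM (median 279) after HTT-10150 and 273 to 327 CPM (median 321) after NTC, so every HTT-10150 library lay below the NTC median, and the groups overlapped. The log2 fold change was -0.14 ± 0.04 (SE, edgeR adjusted p = 0.038). It was lost in 6 of the 13 alternatives tried, among them without replicate 1 (-0.09, adjusted p = 0.35), without replicate 3 (-0.13, adjusted p = 0.19) and with the length and GC slopes as covariates (-0.06, adjusted p = 0.7). In WT of 2+6[8]10 the change was -0.04 ± 0.04, and the difference between genotypes did not pass (edgeR adjusted p = 0.47).

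For 14 members that passed in all 3 untreated genotype comparisons (all those described by library except Scn2a), the HTT-10150 changes in zQ175 ran from -0.09 to 0.14 on the log2 scale in 2[4]6, from -0.09 to 0.07 in 6[4]10 and from -0.10 to 0.07 in 2+6[8]10. None passed the test, and the 95% intervals of the single genes reached at most from -0.28 to 0.26. In WT the changes ran from -0.11 to 0.10 over the 3 strategies, with intervals that reached at most from -0.35 to 0.39, and none passed. Without the libraries apart by medium spiny neuron markers or length slope the changes in zQ175 ran from -0.07 to 0.17 in 2[4]6 and from -0.09 to 0.11 in 6[4]10, and none passed. Scn4b, for instance, had -0.06 ± 0.08, -0.02 ± 0.12 and 0.01 ± 0.06 (SE) in 2[4]6, 6[4]10 and 2+6[8]10, with 403 to 581 CPM (median 507) after HTT-10150 and 432 to 568 CPM (median 491) after NTC in 2+6[8]10. These values overlapped, and all lay below the WT libraries given NTC (1477 to 2082 CPM). In 2[4]6 and 6[4]10 the lowest zQ175 library given HTT-10150 (373 and 166 CPM of Scn4b) was among those apart, and without the libraries apart the Scn4b change was 0.01 ± 0.06 and 0.11 ± 0.08, and neither passed in edgeR. Over the 35 members tested, 4, 0 and 7 had an unadjusted p under 0.05 in zQ175 of 2[4]6, 6[4]10 and 2+6[8]10, and 0, 1 and 2 in WT. Of all 15716, 15757 and 15506 genes tested, 821, 561 and 2635 had such a p in zQ175 and 932, 517 and 812 in WT. In edgeR and in DESeq2 0 members passed in each of the 5 other HTT-10150 comparisons, where 0%, 0%, 0.00636%, 0% and 0.0129% of all genes did in edgeR (zQ175 of 2[4]6 and 6[4]10, then WT of 2[4]6, 6[4]10 and 2+6[8]10).

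**Figure D4:**
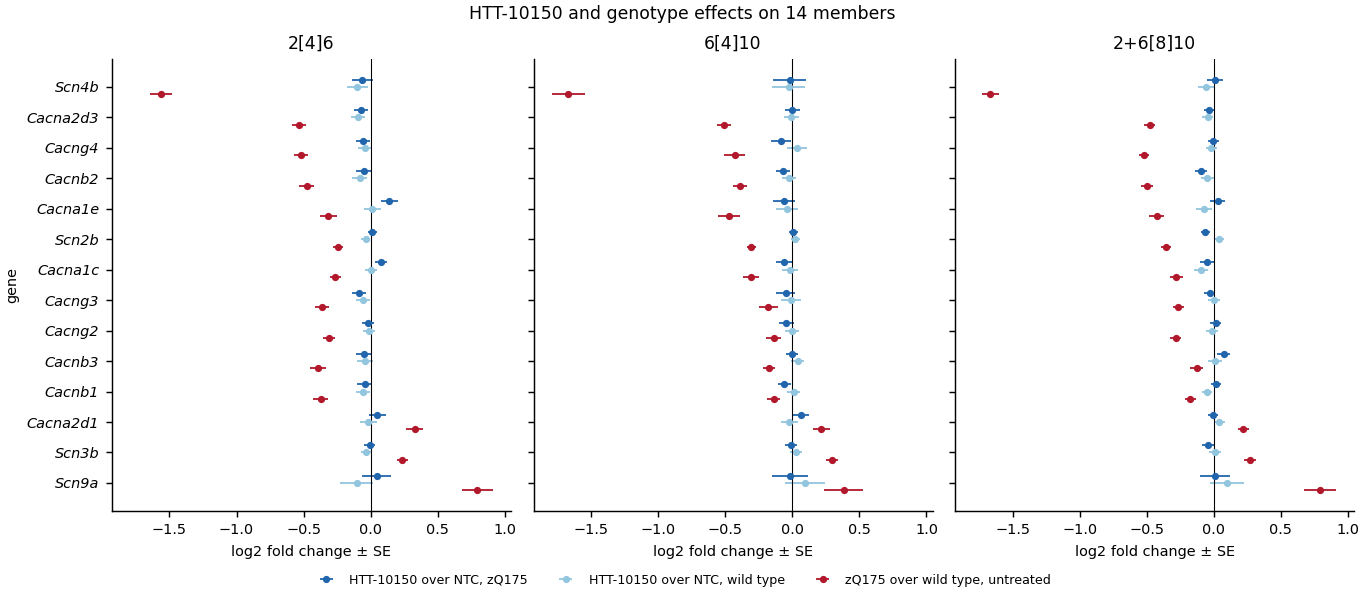
Log2 fold changes with standard errors for 14 members in each strategy: HTT-10150 over NTC in zQ175 (dark blue) and in WT (light blue), and zQ175 over WT in untreated mice (red). The blue points gather around 0 in all 3 panels, and the red points run from -1.67 for Scn4b to 0.79 for Scn9a.

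When the HTT-10150 effect was compared between zQ175 and WT, 0 members passed in edgeR and DESeq2 (0%, 0% and 0.529% of all genes in 2[4]6, 6[4]10 and 2+6[8]10), and 0 members had an unadjusted p under 0.05. Of all 15716, 15757 and 15506 genes tested, 398, 673 and 1893 had such a p. NTC against untreated gave 0 members in either tool, with 3, 2 and 2 members at an unadjusted p under 0.05 in zQ175 (0%, 0% and 0% of all genes passed) and 0, 0 and 3 in WT (0%, 0% and 0.181%). Among the same genes, 785, 1167 and 473 had an unadjusted p under 0.05 in zQ175 and 316, 394 and 1771 in WT. HTT-10150 and the genotype comparison after NTC share the NTC animals, as NTC against untreated shares the untreated ones, so these effects are not independent.

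The untreated genotype effect was compared between strategies and between sexes. Between 6[4]10 and 2[4]6, 0 members passed in edgeR, with 11 at an unadjusted p under 0.05, and 0.835% of all genes passed. Of all 16295 genes tested, 2614 had an unadjusted p under 0.05. The smallest adjusted p belonged to Cacnb1 (0.23 ± 0.07, edgeR adjusted p = 0.061), whose fall was smaller in 6[4]10. DESeq2 called 2 members there, Cacnb1 and Cacna1d. Between 2+6[8]10 and 2[4]6, and between 2+6[8]10 and 6[4]10, 0 members passed in either tool, with 5 and 1 at an unadjusted p under 0.05 (0.0675% and 0.0123% of all genes passed in edgeR). An unadjusted p under 0.05 belonged to 1803 and 881 of the 16295 genes. Between females and males 0 members passed in edgeR, with 2, 5 and 1 at an unadjusted p under 0.05 in 2[4]6, 6[4]10 and 2+6[8]10, and 0% of all genes passed in each. Among the 16020, 16079 and 16086 genes tested, 396, 1555 and 885 had an unadjusted p under 0.05. Exons of Cacnb1, Cacnb2, Cacng2, Scn9a and 6 further members overlap exons of a gene on the other strand, by 0.839% to 19.98% of the member's exon bases, and the sources used here do not state whether counting used the strand.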

How the data were processed

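Striatal polyA RNA of 143 mice was sequenced, and per gene the authors deposited expected counts estimated with RSEM on GRCm38, per the submitters' processing notes. They also deposited a second table of levels per length, whose columns sum to the same total of 1e+06 and which was read as TPM. For the RSEM version, aligner, annotation and strand setting: not given in the sources used here. Of 41135 entries, 7 construct or mutant entries (5.91e-06% of counts) were left out, and 40254 identifiers had a symbol. Expected counts were rounded to whole numbers, genes with low counts were removed with filterByExpr, libraries were scaled by TMM, and each strategy was fitted separately with edgeR 4.0.16 (quasi-likelihood test, R 4.3.3) on its 6 groups with sex as a covariate. P-values were adjusted by Benjamini-Hochberg over all genes tested, at a threshold of 0.05. Differences between strategies were tested between the untreated groups within 1 fit of all 143 libraries (18 groups, sex within strategy). DESeq2 1.42.0 was an alternative. Tables were joined with Python 3.11.15 and pandas 2.3.3. Printed CPM values are TMM-scaled over all 143 libraries, so that they differ slightly from the scale within a strategy. The code was tested on simulated data.

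Values by library are given for members that passed in the same direction in all 3 untreated genotype comparisons, at most 14 by mean absolute fold change, and for members that passed after HTT-10150. Partners named are those that passed in all 3. The values of 2 members are not reported here, although both are in the counts. The members and all lists were chosen with earlier results of these data known. Each mouse gave 1 library, and no 2 libraries held identical values. The alternatives were DESeq2, RLE in place of TMM scaling, the fit without a count filter, a fit of the compared groups alone, one without sex, a replicate block, length and GC slopes as covariates, 1 fit over all 143 libraries, leaving out each replicate number, and leaving out libraries that stood apart (over 5 scaled median absolute deviations from their group).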

Additional observations from a re-analysis of the deposited data

Results flagged for a closer look

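Among 86 groups of untreated libraries examined (members described by library, per group), 7 had a highest or lowest library far from the others by Dixon's criterion, which chance alone gives in about 1 in 20 groups. Female 1 of the untreated WT mice of 6[4]10 was lowest in 3 members, with 1117 CPM of Scn4b (the next library had 1507), 339.7 CPM of Scn2b (next 364) and 88.6 CPM of Cacna2d1 (next 111). Male 2 of the untreated zQ175 mice of 6[4]10 was lowest in 2 members, with 62.7 CPM of Cacna1c (next 84.7) and 100.3 CPM of Cacna2d1 (next 127). It is also among the libraries apart by the slope of gene levels on transcript length. Scn9a was highest in male 4 of the untreated zQ175 mice of 2+6[8]10 at 20.1 CPM (next 13.3) and in female 2 of the untreated WT mice of 2[4]6 at 8.48 CPM (next 6.22).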

How the results depend on the processing

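Of the alternative values for the counts of members called, 461 stayed within 1.5 times and 10 did not. The count for HTT-10150 in 2+6[8]10 zQ175 mice, 1 member, was 0 with no filter on low counts, with only the groups compared, with length and GC slopes as covariates and in 1 fit over all 143 libraries, and 0 to 2 leaving out each replicate number. Members higher in untreated 6[4]10 numbered 3 to 4 leaving out each replicate number, and those higher after HTT-10150 in 2+6[8]10 numbered 5 to 9. Between 6[4]10 and 2[4]6, DESeq2 called 2 members and edgeR 0. Of the alternative values for single members in untreated mice, 594 stayed on their side of the threshold, 36 lost the call and 0 changed sign, and the cause was not tested. With a replicate block, 14, 11 and 13 members were lower and 8, 5 and 7 higher in untreated 2[4]6, 6[4]10 and 2+6[8]10. Libraries of the same sex and number deviated together only weakly (median r 0.05, 0.02 and 0.03), so the numbers were not taken as pairing. The exclusions of libraries that stood apart were chosen after seeing the data. Low counts limit Cacng1, Cacna1s, Scn7a, Cacna2d4, Scn9a and the 5 members not tested. Reads shared with genes on the other strand cannot be separated.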
